A study of Mus musculus with 16 samples.

Results

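The cytosolic ribosome translates the messages of the nucleus and is built from ribosomal RNA and a fixed set of ribosomal proteins, each coded by its own gene. The small subunit decodes the message, the large subunit forms the peptide bond, and the P stalk of the large subunit recruits the factors that drive elongation. Most of their mRNAs begin with a run of pyrimidines, the terminal oligopyrimidine motif, through which mTOR signalling controls their translation. In myeloid cells these are among the most abundant short mRNAs of the cell.

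Ribosomal protein genes were found by symbol: Rpl or Rps followed by a number with at most a letter a, x or l and a last digit, and Rplp0, Rplp1, Rplp2 and Rpsa. The rule found 84 of the 18580 genes with a symbol, 32 of the small subunit, 49 of the large subunit and 3 of the P stalk. Another 5 reference symbols that match the rule were at 0 in every library. The rule also takes the paralogs Rpl3l, Rpl7l1, Rpl10l, Rpl22l1, Rpl39l and Rps27l, and it leaves out Fau, Rpl36al and Rack1, which are given apart.

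The data were 16 SMART-seq2 libraries of bulk RNA from mouse brain, 1 for each combination of cell population, sex, genotype and injection. CD163KO mice carried the allele CD163tm1.1(KOMP)Vlcg, which removes the hemoglobin-haptoglobin scavenger receptor of macrophages, and WT mice were their C57BL/6N littermates. All mice, 12 weeks old at surgery, received bilateral injections into the striatum of α-synuclein, either monomeric (MONO) or as pre-formed fibrils (PFF), and were killed 2 months p.i. With 4 to 7 mice injected in a combination, cells were sorted into microglia (CD11b+ with low or intermediate CD45) and macrophages (CD11b+ with high CD45, a gate that can hold neutrophils and NK cells beside the macrophages of the brain borders and those that entered from blood). Each combination of sex, genotype and injection thus gave a pair of populations matched by group, and no library had a replicate of its own. The study worked in technical triplicates, and the sources do not say if they were pooled in a table, so p-values measure only the spread between combinations, part of which may be technical.

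Total counts ran from 8648751 to 21433841 a library. Marker genes followed the labels: 10 microglial markers summed to 33479 to 81315 CPM (counts scaled to the library total) in microglia and 1774 to 3539 in macrophages, and 11 neutrophil markers to 10248 to 60581 in macrophages and 1025 to 2200 in microglia. Cd163 had 748 to 5275 counts in the 4 WT macrophage libraries and at most 1 in the CD163KO ones. In microglia it did not separate the labels, with 5, 10, 11 and 23 counts in the libraries labelled CD163KO and 0, 1, 46 and 101 in those labelled WT. The female CD163KO MONO microglia library, the one with 23 counts of Cd163, held 799 counts of Y-linked genes, against at most 2 in the other female libraries. The macrophage library of the same combination held 0. The makeup of the libraries crossed in 2 combinations. The 20 leading genes took 46.2% to 72.0% of counts in 6 macrophage libraries and 18.4% to 20.7% in 6 microglia libraries, but in male WT PFF and male CD163KO MONO they took 21.4% and 21.1% in macrophages and 67.7% and 55.0% in microglia. The study left male CD163KO MONO out for inconsistent technical replicates. It also corrected for batches of mice and removed outlier samples of each population. The labels name neither, and the counts tested here were not corrected for batch. Tests here leave male CD163KO MONO out too, and descriptions include it. Male WT PFF stays in the tests, with values without it given where they matter.

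The sequence around the annotated start is shown because the pyrimidine motif of these mRNAs lies at their first bases. Counted below are the letters CTTTC anywhere around the start. They are not that motif and do not count the genes that have it. RefSeq start site windows (GRCm38.p6) were found for 64 of the 84 genes. The letters CTTTC, read on the coding strand, stood within 15 bases before and 15 bases from the start on in 17 of the 64 (26.6%), against 4.76% of all 27025 genes with a window. On the other strand the letters, as GAAAG, stood in 3 of the 64 (4.69%) and in 4.21% of all genes. Of the genes with these letters, 6 of high level are printed 5′ to 3′ with the letters in capitals. The annotated start follows the first 15 bases, so the letters of Rpl13 and the first copies in Rpl35 and Rps27 lie before it.
Rpl35, chr2:39005117-39005146, minus strand: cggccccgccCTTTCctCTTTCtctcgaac
Rps27, chr3:90213634-90213663, minus strand: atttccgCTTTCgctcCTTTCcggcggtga
Rpl13, chr8:123102335-123102364, plus strand: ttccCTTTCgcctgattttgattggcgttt
Rpl13a, chr7:45128731-45128760, minus strand: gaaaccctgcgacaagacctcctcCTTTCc
Rpl18, chr7:45718056-45718085, plus strand: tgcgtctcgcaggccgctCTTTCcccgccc
Rps26, chr10:128626492-128626521, minus strand: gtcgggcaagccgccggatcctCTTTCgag
Genes with and without these letters had like population differences, with median log2 fold changes of -1.55 over 16 genes and -1.56 over 44.

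Ribosomal protein genes took about 1% of all counts in both populations. In macrophages their share of counts was 0.780% at the lowest, 1.02% at the median and 2.02% at the highest. In microglia it was 0.444%, 1.15% and 1.32%. The ranges overlapped, and within matched pairs microglia had the higher share in 5 of 8. The 3 pairs with the higher share in macrophages were male WT MONO (2.02% against 1.04%) and the 2 crossed combinations, male WT PFF (1.75% against 0.444%) and male CD163KO MONO (1.5% against 0.944%). Per length, as a share of summed FPKM, the medians were 1.88% in macrophages and 2.87% in microglia, again higher in microglia in 5 of 8 pairs.

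The picture turned when the 20 leading genes were set aside. Of the counts outside those genes, ribosomal protein genes took 1.90% to 3.76% in macrophages (median 2.50%) and 1.27% to 2.10% in microglia (median 1.5%). Macrophages were higher in 7 of 8 pairs, male CD163KO MONO being the exception (1.90% against 2.10%). The part of the leading genes in these shares was not tested. In bulk RNA, fewer cells of a type and less RNA per cell cannot be told apart.

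**Figure D1:**
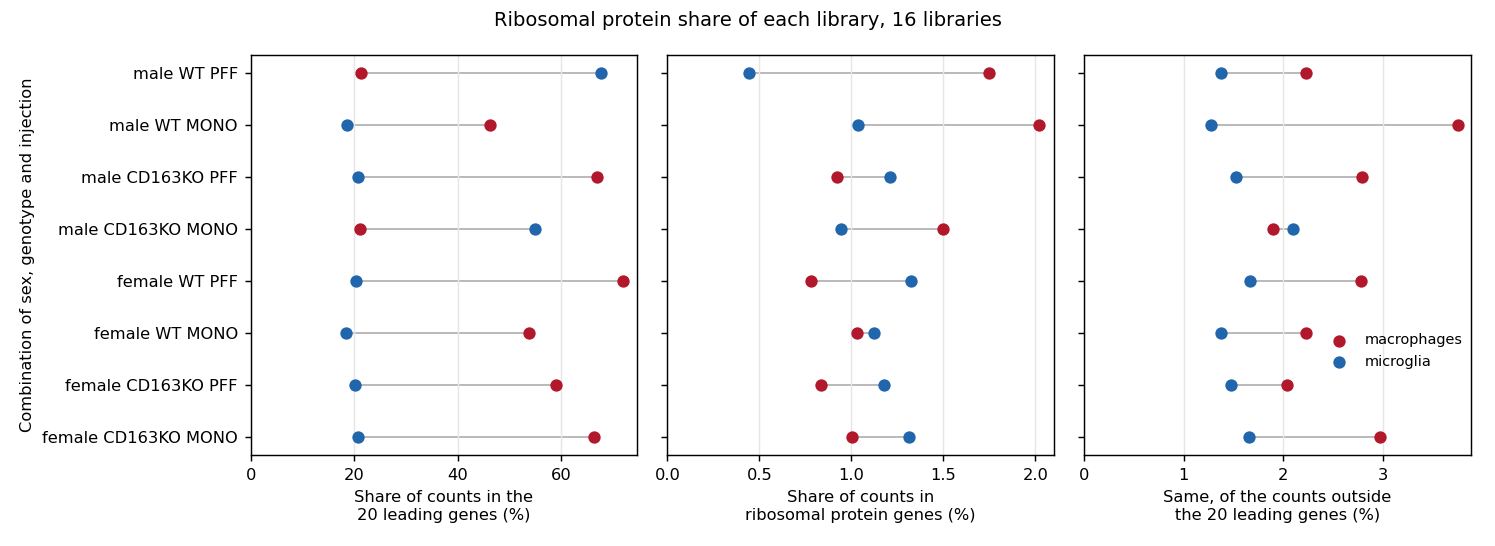
Each row is a combination of sex, genotype and injection, with its macrophage (red) and microglia (blue) library joined by a line; the horizontal axes give percent of counts. The middle panel shows the ribosomal protein share higher in microglia in 5 of 8 pairs, the right panel, outside the 20 leading genes, higher in macrophages in 7 of 8, and the left panel shows the 2 crossed combinations.

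The order of levels was much alike in the populations. On the FPKM scale, which is per length, Spearman's rho between the medians of macrophages and microglia was 0.87 across the 80 genes tested, a description across genes of the same libraries. The same 4 genes led both: Rpl35, Rps27, Rps14 and Rpl41. Rpl35, of the large subunit near the exit tunnel, stood at 976 to 2763 FPKM in macrophages (median 1281) and 547 to 1183 in microglia (median 779). Rps27, a zinc finger protein of the small subunit, had medians of 1221 and 727. Rpl41, the smallest ribosomal protein, had 529 to 1144 FPKM in macrophages (median 644) and 215 to 638 in microglia (median 455). Neighbours in this order overlapped widely: the Rps27 range in macrophages, 993 to 1851, lay inside that of Rpl35.

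At the other end stood the tissue-restricted paralogs. Rpl10l and Rpl39l, known from testis, had medians of 0 and 0.285 FPKM in macrophages and 0 and 0.655 in microglia. Rpl32l was listed in 2 macrophage and 3 microglia libraries. Rps15a had only 6.03 and 8.14 FPKM, measured over a listed transcript of 5158 bases, and Rps20, named after its values were seen, had 11.8 and 13.5 over 3446 bases, where the median small subunit gene had 631 bases. Rplp0, the scaffold of the P stalk often used as a reference gene, had 167 to 394 FPKM in macrophages (median 245) and 95.6 to 355 in microglia (median 277). Rpsa, the laminin receptor protein of the small subunit, had medians of 79.9 and 96.4 FPKM.

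In the paired test of the populations, ribosomal protein genes were lower in microglia, relative to the other genes. Of 80 genes tested with edgeR's quasi-likelihood test, 73 were called lower in microglia and 0 higher at a Benjamini-Hochberg adjusted p of at most 0.05. Over all 10987 genes tested, 22.8% were called, 14.3% lower and 8.46% higher. The median log2 fold change, microglia minus macrophages, was -1.58 over the ribosomal protein genes and 0.28 over all genes, a difference of -1.86 relative to the median gene. With a log2 fold change of at least 1 in size as well, the rule of the study, 65 were called, and 20.6% of all genes. The 7 not called were Rpl10a, Rpl22, Rpl22l1, Rpl29, Rpl5, Rpl7l1 and Rps3, and 4 paralogs were too low to be tested.

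These calls depended on how the libraries were scaled. TMM scaling, used above, sets the bulk of genes even. With total counts only, the median of all genes moved to 1.94 and the ribosomal protein median to -0.12. Then 3 ribosomal protein genes were called, Rpl10a and Rpl7l1 higher and Rpl35 lower, where 53.7% of all genes were. On log2(FPKM + 1) with limma the medians were 1.05 and -0.15. There 3 ribosomal protein genes were called higher and 7 lower, against 53.6% of all genes called. Scaled to the counts outside the 20 leading genes and the ribosomal protein genes, 47 were called lower, none higher, with 31.6% of all genes called. Relative to the median of all genes, the ribosomal protein median was lower in microglia under each of the 11 scalings and models, with differences of -2.11 to -1.20 on the log2 scale. Left out in turn, the 7 combinations gave 62 to 77 calls, all lower, with 77 without male WT PFF. Of all genes these fits called 16.4% to 42.5%.

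**Figure D2:**
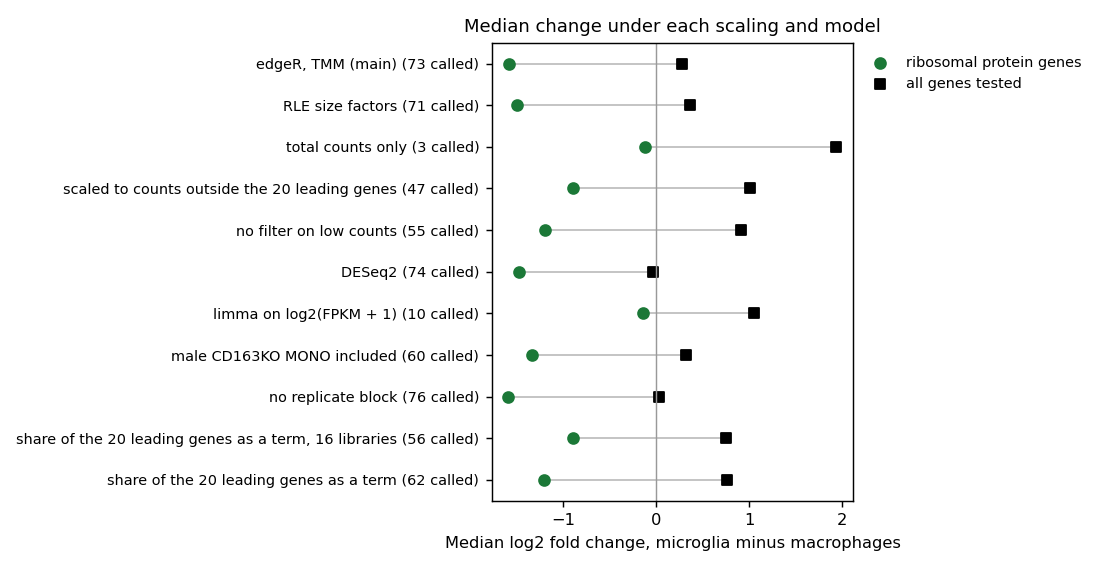
For each scaling or model (rows, with the number of ribosomal protein genes called), the green point is the median log2 fold change of the ribosomal protein genes and the black square that of all genes tested, microglia minus macrophages. Green lies left of black in every row, while the place of both against 0 moves with the scaling, from -1.58 to -0.12 for the ribosomal protein genes in the rows for TMM and total counts.

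Of the calls with the smallest adjusted p, Rps24, a protein of the small subunit needed for the processing of its RNA, came first, with a log2 fold change of -1.95 (SE 0.21, adjusted p = 0.000104) by edgeR. Its FPKM values, by contrast, overlapped: 63.4 to 251 in macrophages and 36.3 to 121 in microglia. Rps19, the gene most often mutated in Diamond-Blackfan anemia, had a log2 fold change of -1.92 (SE 0.22), with 278 to 803 FPKM in macrophages and 89.8 to 449 in microglia. Rps26 (-1.83, SE 0.22), also of the small subunit, was called as well, and its ranges of 114 to 370 and 44.2 to 233 FPKM overlapped. Rpl11, which can bind Mdm2 when outside the ribosome, fell by 1.54 (SE 0.19). Rpl3, which lies at the peptidyl transferase center, fell by 0.81 (SE 0.21, adjusted p = 0.0181), and Rps3, at the entry of the mRNA channel, had a log2 fold change of -0.80 (SE 0.27, adjusted p = 0.0548) and was not called. Rpl3 was lower in 9 of 11 scalings and models and called lower in 5. Its median FPKM was higher in microglia (242 against 124). Rplp0 fell by 1.38 (SE 0.25).

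The genes farthest below the others were lower in microglia in FPKM too. Rpl38 (log2 fold change -2.72, SE 0.42), Rpl35 (-2.41, SE 0.34) and Rps28 (-2.41, SE 0.37) lay farthest below the median of the ribosomal protein genes. Rpl38, known for the translation of Hox mRNAs, had 133 to 312 FPKM in macrophages and 53.7 to 131 in microglia. Rps28, a small protein of the small subunit, had 167 to 510 FPKM in macrophages and 75.0 to 169 in microglia. All 8 macrophage values of Rpl38 lay above all 8 microglia values. The same held for Rps27 (993 to 1851 against 520 to 953), and for no other ribosomal protein gene. These 2 of 80 are about the share over all genes tested, 2.6%. No ribosomal protein gene had all macrophage values below, against 5.02% of all genes.

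In 6 genes FPKM was higher in macrophages in 8 of 8 matched pairs, the crossed ones included: Rpl35, Rpl37a, Rpl38, Rps14, Rps27 and Rps28. That is 7.5% of the 80, against 3.84% of all genes tested. None was higher in microglia in 8 of 8 pairs, where 16.9% of all genes were. Rps14, a small subunit gene of the platform, had 582 to 1248 FPKM in macrophages (median 686) and 303 to 640 in microglia (median 468). Rpl37a had medians of 416 and 245 FPKM, with ranges of 305 to 514 and 135 to 356 that overlapped.

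Rpl7l1 (log2 fold change -0.12, SE 0.21, adjusted p = 0.724), Rpl10a (-0.22, SE 0.27, adjusted p = 0.597) and Rpl5 (-0.45, SE 0.29, adjusted p = 0.305) lay farthest above the median of the ribosomal protein genes. In FPKM, which is scaled by depth and not by TMM, they were higher in most microglia libraries. With total counts only, edgeR gave log2 fold changes of 1.21 for Rpl10a and 1.36 for Rpl7l1. Rpl10a, a large subunit protein of the L1 stalk, had 91.8 to 188 FPKM in macrophages (median 106) and 105 to 372 in microglia (median 294), and the only pair with the higher value in macrophages was male WT PFF (153 against 105). Rpl5, which carries the 5S RNA into the large subunit, had medians of 60.7 and 125 FPKM and the same single exception (50.3 against 45.2). Rpl7l1, a paralog of Rpl7, had 9.92 to 34.2 FPKM in macrophages and 13 to 79 in microglia, with medians of 21.0 and 50.6. Rpl3 had medians of 124 and 242 FPKM, with the highest of all 16 values in male WT PFF macrophages (409) and the lowest in the microglia of the same combination (99.5). Rpl5 and Rpl7l1 are among 9 genes whose estimated counts were not whole in most libraries (within 0.005), so their reads were shared out with similar transcripts and their levels are less certain.

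**Figure D3:**
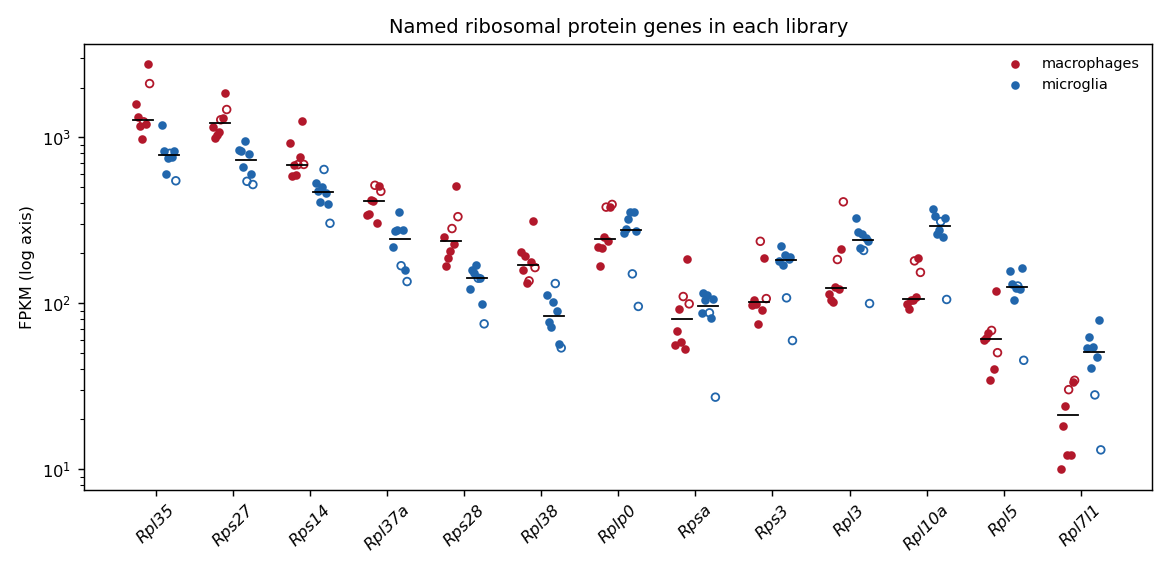
FPKM on a log axis of 13 named genes in the 8 macrophage (red) and 8 microglia (blue) libraries, with the median as a bar and open points for the crossed combinations, male WT PFF and male CD163KO MONO. Rpl35 to Rpl38 lie higher in macrophages and Rpl10a, Rpl5 and Rpl7l1 mostly higher in microglia, where male WT PFF is the lowest microglia value of each of these 3.

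The population difference followed transcript length. Across the 80 genes, Spearman's rho between length and log2 fold change was 0.65, a description. In the 27 shortest genes, of 370 to 572 bases, the median log2 fold change was -1.81 and 26 were called lower, and the 125 other genes of that length had a median of -1.91 with 68.8% called lower. In the 26 genes of 573 to 862 bases the median was -1.61, against -1.18 in 362 other genes. In the 18 genes of 864 to 1600 bases it was -1.12 with 18 called lower, against -0.58 and 26.4% in 1656 other genes. In the 9 genes above that length it was -1.10, against 0.43 in 7025 other genes. Short ribosomal protein genes thus had about the value of other short genes, while those above 573 bases lay below the others of their length. The mean transcript length of a library, weighted by counts, also crossed with the makeup, with 1549 to 1803 bases in 6 macrophage libraries and 2522 and 2550 in the crossed 2, against 2805 to 2964 in 6 microglia libraries and 1916 and 2063. Its part in the result was not tested.

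**Figure D4:**
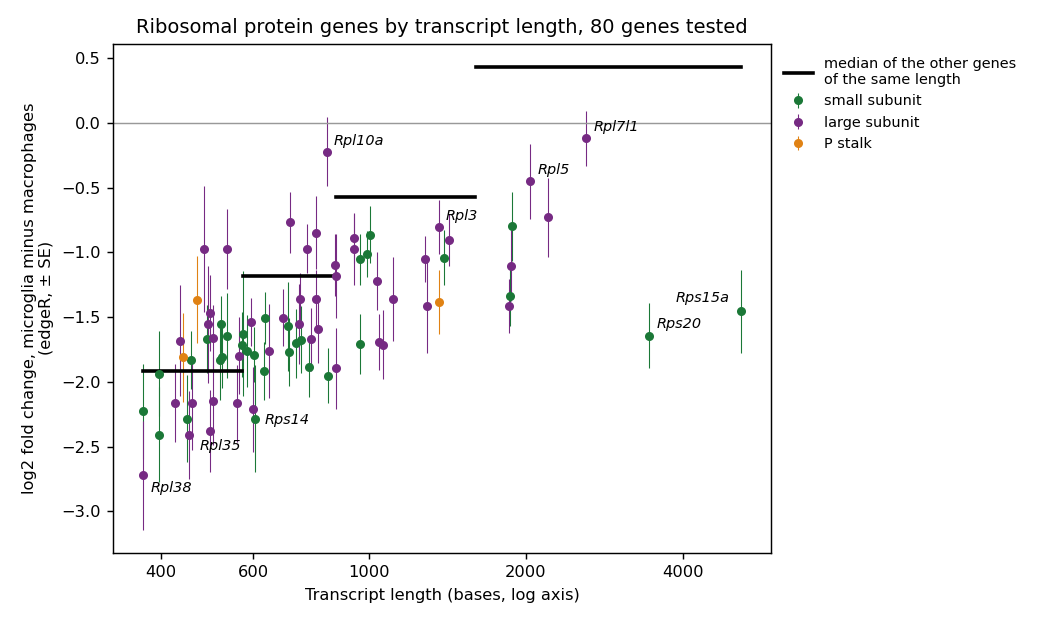
Each point is 1 of 80 ribosomal protein genes, with transcript length on a log axis and the edgeR log2 fold change, microglia minus macrophages, with its SE; black bars give the median of the other genes in the length ranges of the text. Points and bars meet at the short end and part toward the long end, where the bars reach 0.43.

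The balance of the subunits separated the populations. The summed FPKM of the small subunit genes over that of the large subunit genes, P stalk included, was 0.846 to 0.910 in macrophages (median 0.871) and 0.743 to 0.783 in microglia (median 0.764). All 8 macrophage libraries lay above all 8 microglia libraries, also those of the crossed combinations. As a ratio within a library it does not depend on the scaling. Without Rpl35 and Rps27, the leading pair, the ranges were 0.811 to 0.921 and 0.734 to 0.753. With only the genes of 573 bases or more they were 0.901 to 1.09 and 0.747 to 0.875, again with no overlap. Without Rps27 alone they overlapped narrowly, 0.690 to 0.798 against 0.631 to 0.693. In the paired test 31 of 32 small subunit genes, 39 of 45 tested large subunit genes and all 3 P stalk genes were called lower in microglia, with median log2 fold changes of -1.71, -1.42 and -1.38. Small subunit genes were also shorter, with a median of 631 bases against 793, and the part of length was not tested beyond the restriction above.

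**Figure D5:**
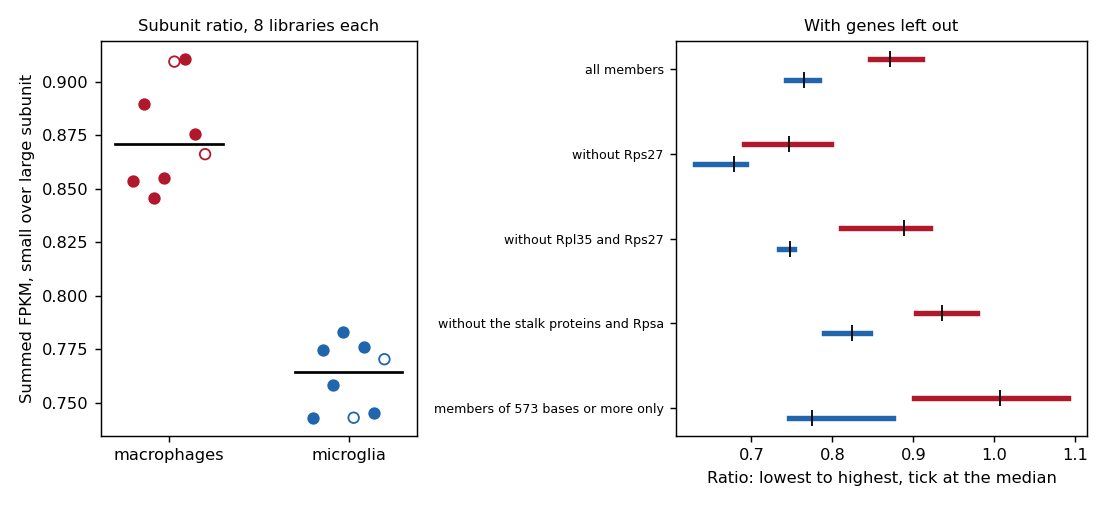
Left, the summed FPKM of small subunit genes over large subunit genes in each of 8 macrophage and 8 microglia libraries, with the median as a bar and open points for the crossed combinations (axis not from 0). Right, the lowest to highest ratio of each population (red macrophages, blue microglia) with genes left out; the ranges touch only where Rps27 alone is left out.

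At the median, most paralogs lay below their partners, and 1 paralog was listed in macrophage libraries alone. Rpl3l, the muscle form of Rpl3, had 33 to 155 counts in 5 macrophage libraries (313 in all) and 0 in the other 3 macrophage libraries, which are female CD163KO PFF and the 2 crossed ones, and in all 8 microglia libraries, where a count of 0 allows up to 3 counts a library, counting error only. Rpl3 had 36248 counts in microglia. Rpl3l stood at 3.76% of Rpl3 at most. Rpl22l1, which can replace Rpl22, was the only paralog above its partner at the median, with 226% of the Rpl22 FPKM in macrophages (125% to 489%) and 186% in microglia (81.6% to 289%), and it lay below Rpl22 in 1 library, male CD163KO MONO microglia. Rpl7l1 stood at 13% of Rpl7 in macrophages (8.83% to 20.6%) and 22.7% in microglia (15.7% to 34%), Rps27l, a p53 target, at 17.3% and 21.1% of Rps27. Within the P stalk, Rplp2 stood at 59.8% of Rplp1 in macrophages (46.4% to 67.2%) and 43.9% in microglia (35.6% to 53.2%).

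Ribosomal proteins outside the naming rule had like values. Fau (log2 fold change -1.66, SE 0.33), Rpl36al (-1.74, SE 0.41) and Rack1 (-1.13, SE 0.19) were each called lower in microglia by edgeR, with adjusted p = 0.00478, 0.012 and 0.00142. Fau, whose product is cut into a ubiquitin-like protein and a small subunit protein, had 438 to 947 FPKM in macrophages and 289 to 718 in microglia.

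The other lists of the translation machinery are given by their counts and medians, beside 14.3% lower, 8.46% higher and a median of 0.28 over all genes, with no test between lists and no match of length. Of 12 elongation factors and other mRNAs with the pyrimidine motif, 7 were called lower and 0 higher, with a median of -0.96. Tpt1, among the best known of these mRNAs, fell by 1.67 (SE 0.22). Eef1a1, the factor that delivers tRNAs, was not called (-0.48, SE 0.29, adjusted p = 0.269), with medians of 417 FPKM in macrophages and 890 in microglia. Of 27 initiation factors 8 were lower and 2 higher, with a median of -0.33, the lower ones including Eif5a (-1.85, SE 0.26) and Eif1 (-1.59, SE 0.27). Of 75 mitochondrial ribosomal protein genes 25 were lower and 0 higher, with a median of -0.73, among them Mrpl33 (-3.09, SE 0.26). Of 27 ribosome biogenesis genes 2 were lower (Nop10 and Nhp2, small proteins of the box H/ACA particles) and 2 higher (Polr1a, the largest subunit of RNA polymerase I, and Nop56), with a median of 0.34. Among 11 tested genes of mTOR signalling and pyrimidine motif control, with a median of 1.18, Eif4ebp1, the translational repressor that mTOR inactivates, was lower (-2.30, SE 0.22), and Rptor (2.94, SE 0.51) and Larp1 (0.94, SE 0.27) were higher.

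No ribosomal protein gene was called with the fibrils, by edgeR within either population. In macrophages 0 of 83 tested were called in PFF against MONO, where edgeR called 0% of 11988 genes, and 0 had an unadjusted p under 0.05, where 1.04% of all genes had. DESeq2 called 0 of 84 and limma 0 of 82, where they called 0.479% and 0.0109% of all genes they tested. The edgeR median log2 fold change was -0.19 against -0.11 over all genes, with a median SE of 0.41. Of the 83 values 66 were below 0, where 55.1% of all genes were. With 1 library left out the median ran from -0.83 (without female WT PFF) to 0.03 (without male WT MONO), and relative to all genes from -0.27 to 0.35. In microglia 0 of 81 were called, where 0% of 12725 genes were. DESeq2 called 0 of 83 and limma 0 of 80, against 0.648% and 0.00899% of all genes they tested. Here 3 of the 81 genes had an unadjusted p under 0.05, where 6.01% of all genes had, all 3 higher with PFF and named after their values were seen: Rpl13 (0.79, SE 0.35), Rpl36 (1.05, SE 0.47) and Rpl37a (0.90, SE 0.39), each with an edgeR adjusted p of 0.776. The microglial median was 0.33 against 0.13 over all genes and 77 of 81 values were above 0, where 58.0% of all genes were. Over the scalings and models the median ran from -0.29 to 0.33, and relative to all genes from -0.01 to 0.19. With 1 library left out it ran from 0.03 (without male WT MONO) to 0.75 (without female CD163KO MONO, the library with Y-linked counts), and relative to all genes from 0.00435 to 0.60.

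As a share of counts, macrophages had less ribosomal protein mRNA with PFF than with MONO in 4 of 4 matched pairs. The share was 0.780% against 1.03% in WT females, 0.837% against 1.00% in CD163KO females, 1.75% against 2.02% in WT males and 0.922% against 1.5% in CD163KO males. As a share of FPKM it was lower in 3 of 4, and of the counts outside the 20 leading genes in 2 of 4. The share of the 20 leading genes differed within these pairs too, the most in WT males (21.4% with PFF against 46.2%) and CD163KO males (66.9% against 21.1%). Markers of other cells in the gate moved as well. The sum of neutrophil markers was lower with PFF in 3 of 4 pairs, at 10248 against 58494 CPM in WT females, 14726 against 40340 in CD163KO females and 36827 against 49975 in WT males, and higher in CD163KO males, at 60581 against 43959. That of NK, T and B cell markers, 49.8 to 295 CPM in macrophages with Trac at 0, was lower in 4 of 4. Choroid plexus markers were lower with PFF except in CD163KO females (7602 against 195 CPM). The part of the leading genes and of these cells in the share was not tested. In microglia the share of counts was lower with PFF in 2 of 4 pairs.

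The CD163 deletion gave no call either. In macrophages 0 of 83 ribosomal protein genes were called by edgeR, where it called 0.00834% of 11988 genes, which is Cd163 itself (-11.35, SE 0.83, adjusted p = 0.0102). An unadjusted p under 0.05 was found for 0 of the 83 and for 0.659% of all genes. The median log2 fold change, CD163KO minus WT, was 0.03 over the ribosomal protein genes and 0.14 over all genes, and with 1 library left out the former ran from -0.15 (without male CD163KO PFF) to 0.65 (without female WT PFF). DESeq2 called 0 of 84 and limma 0 of 82, against 0.377% and 0.0434% of all genes. In microglia, with the genotypes as labelled, edgeR called 0 of 81, where 0% of all genes were called, and 0 had an unadjusted p under 0.05, against 1.3% of all genes, with medians of -0.11 and -0.04. With 1 library left out the median ran from -0.48 (without female CD163KO MONO) to 0.15 (without male WT PFF). DESeq2 called 0 of 83 and limma 0 of 80, against 0.358% and 0% of all genes. Rplp0 had log2 fold changes of -0.06 (SE 0.47) in macrophages and -0.22 (SE 0.34) in microglia, and Rpsa -0.26 (SE 0.41) and -0.28 (SE 0.30). In CD163KO macrophages the share of counts was lower than in WT in 3 of 4 pairs, as was that of FPKM. Outside the 20 leading genes it was lower in 2 of 4. In microglia, as labelled, these were lower in 2, 2 and 1 of 4 pairs. The male pairs each held a library of crossed makeup.

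No ribosomal protein gene was called between males and females. Y-linked genes summed to at most 2 counts in the female macrophage libraries and to 350 to 6545 in the males tested. As edgeR called 0% of all genes there, large differences could be missed too. In macrophages edgeR called 0 of 83, where 0% of all genes were called, and 0 had an unadjusted p under 0.05, against 1.27% of all genes. DESeq2 and limma called 0, against 0.708% and 0.0651% of all genes. The median, males minus females, was 0.10 against -0.18 over all genes, and ran from -0.18 (without male WT MONO) to 0.64 (without female WT PFF) with 1 library left out. In microglia edgeR called 0 of 81, against 0% of all genes, and 0 had an unadjusted p under 0.05, against 1.69% of all genes, with medians of 0.08 and 0.02, the former from -0.16 (without male WT PFF) to 0.37 (without male WT MONO) with 1 library left out. DESeq2 and limma called 0, against 0.486% and 0.0450% of all genes. The share of counts in macrophages was higher in males in 4 of 4 pairs, the share of FPKM in 3 of 4, and the share outside the 20 leading genes in 2 of 4. Markers of border-associated macrophages were higher in males in 3 of 4 macrophage pairs, at 5360 against 3514 CPM in WT MONO, 7553 against 2209 in WT PFF and 8374 against 3407 in CD163KO MONO, but 2530 against 5168 in CD163KO PFF. NK, T and B cell markers were higher in males in the same 3 pairs. Neutrophil markers were higher in males except in WT MONO (49975 against 58494 CPM). Choroid plexus markers were lower in males in 4 of 4 pairs, at 3843 against 20171 CPM in WT MONO and 1140 against 3275 in WT PFF. In CD163KO they were 147 against 195 with MONO and 132 against 7602 with PFF. The part of these cells was not tested. In microglia the share of counts was lower in males in 3 of 4 pairs, as was that of FPKM, and the share outside the 20 leading genes in 2 of 4. The leading genes took more of the counts in males in 4 of 4 microglia pairs. The widest macrophage pairs in the share of counts were WT MONO (2.02% in males, 1.03% in females) and WT PFF (1.75% and 0.780%), the latter from a library of crossed makeup.

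The effects of injection, genotype and sex were also compared between the populations in 1 fit over 14 libraries. Of 83 ribosomal protein genes 0 were called in the difference of the PFF effect, 0 in that of the CD163KO effect and 0 in that of sex by edgeR, and 0 had an unadjusted p under 0.05 in any of them, where 0.890%, 0.613% and 1.01% of all genes had. Over all 13704 genes edgeR called 0% in each. DESeq2 and limma called 0 ribosomal protein genes too, where DESeq2 called 0.345%, 0.367% and 0.553% of all genes and limma 0%. The medians of the difference, microglia minus macrophages, were 0.59, -0.16 and -0.11 over the ribosomal protein genes and 0.51, -0.31 and 0.34 over all genes. With 1 combination left out, the first ran from 0.09 (without male WT MONO) to 1.22 (without female WT PFF). The second ran from -0.78 (without female WT PFF) to 0.21 (without male WT PFF), and the last from -0.68 (without female WT PFF) to 0.37 (without male WT MONO). Over the scalings and models they ran from 0.00957 to 0.61, from -0.21 to 0.77 and from -1.27 to 0.51, so that the sign of the last 2 turned. The median SE of the difference in the PFF effect was 0.61 over the ribosomal protein genes, so that a difference of that size could not be told from the spread between libraries.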

How the data were processed

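The ribosomal protein genes and the gene lists were chosen with earlier results of these data known. Per the study's methods, the authors removed rRNA and low-quality reads, mapped reads with Bowtie2 and estimated expression with RSEM (mm10 in the submitters' processing notes; versions not given in the sources used here). The deposited tables hold RSEM estimated counts (expected counts) and FPKM per RefSeq transcript, the FPKM scaled by the authors for length and depth. Here 27632 of 27787 transcripts were matched to mouse symbols and summed per symbol, unlisted ones set to 0. Counts were rounded and tested with edgeR 4.0.16 (TMM, filterByExpr, quasi-likelihood test, Benjamini-Hochberg over all genes tested). Populations were compared over 14 libraries with the combination as a block, since both were sorted from the same groups of mice. The sources do not say if both tables of a combination hold the same mice. Injection, genotype and sex were fitted together within each population over 7 libraries. Alternatives were DESeq2 1.42.0, limma 3.58.1 on log2(FPKM + 1) with FPKM of at least 1 in 2 libraries, other scalings, no filter, male CD163KO MONO included and each library left out. Scripts were tested on simulated data. Named genes were the 5 highest and 5 lowest in level, up to 5 called per direction, the 3 farthest on each side of the median, the paralog pairs, and Rplp0, Rpsa, Rpl3, Rps3 and Eef1a1. Some genes that this rule names are not reported here. Depth was 8648751 to 21433841 counts a library. Intervals cover counting error only.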

Additional observations from a re-analysis of the deposited data

Results flagged for a closer look

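In 8 comparisons of 8 libraries each (4 measures in 2 populations), 2 values lay far from the others by Dixon's test, where chance gives about 1 in 20. The share of counts in ribosomal protein genes was 0.444% in male WT PFF microglia, where the 7 other microglia libraries had 0.944% to 1.32%. In that library the 20 leading genes took 67.7% of counts. Of the counts outside the leading genes, the share was 2.10% in male CD163KO MONO microglia, where the other 7 had 1.27% to 1.66%. That library was left out by the study, and its leading genes took 55.0% of counts.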

How the results depend on the processing

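In microglia against macrophages, the 73 calls became 3 with total counts only (2 higher, 1 lower, with the median still below 0 at -0.12). They became 10 with limma on log2(FPKM + 1) and 47 with scaling to the counts outside the 20 leading genes and the ribosomal protein genes. Of all genes these settings called 53.7%, 53.6% and 31.6%. The last was chosen after seeing the data, as were those with the leading genes' share as a term (62 and 56 calls, with 52.1% and 36.3% of all genes). The other settings gave 55 to 76 calls, all lower, with 76 without the replicate block of combinations, and 62 to 77 with 1 combination left out. Of all genes they called 13.8% to 27.6%, and 16.4% to 42.5% with 1 combination left out. All genes called rose from 22.8% to 42.5% without male WT PFF. In the 9 comparisons of injection, genotype and sex, 0 were called in each of 141 alternative settings, of which the fold limit could only keep the count at 0, and the range with a library left out was 0 to 0. The median share was 1.88% and 2.87% of FPKM in place of 1.02% and 1.15% of counts. By TPM, 4 of the 5 highest genes in macrophages remained. The cause of these differences was not tested. No combination had a replicate, so small changes could not be detected and large ones could be missed.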
